A study of Mus musculus with 4 samples.

Results

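Capillary aerocytes of the mouse lung were taken as cells with at least 500 UMIs (unique molecular identifiers, each standing for 1 captured RNA molecule) and at most 20% mitochondrial UMIs. They had at least 2 UMIs summed over the endothelial genes Cdh5, Pecam1, Cldn5 and Ptprb, none of the leukocyte gene Ptprc, and at least 3 UMIs of Car4 and Ednrb together. In all, 612 of the 19427 lung cells kept met this rule, out of 29563 cells kept over the 4 libraries of the series. Lungs came from female C57BL/6 mice, 4 months old, that carried a human TNF gene in single copy (TNF+) and from their littermates without it (TNF-). The lungs of 3 to 5 mice per genotype were pooled, dissociated with enzymes and submitted for capture as 1 library per genotype, so no value below has a replicate check and no test was run. The transgene is absent from the mouse reference and its own level was not measured. Libraries of synovium from the same genotypes were used only where named.

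The alveolar wall is lined by a mosaic of 2 kinds of capillary endothelial cell. Aerocytes, marked by the membrane-bound carbonic anhydrase Car4 and the endothelin receptor Ednrb, are large, perforated cells spread over the thin side of the alveolus where gas is exchanged. They make the peptide apelin (Apln) and carry the VEGF receptor Kdr, which answers VEGFA from neighbouring epithelium. General capillary cells carry Gpihbp1, Plvap and the apelin receptor Aplnr, help to set vessel tone and serve as progenitors in repair. TNF acts on endothelium mainly through NF-kB, whose target genes include its own inhibitors and leukocyte adhesion molecules.

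The TNF- lung gave 8342 kept cells and 95523525 UMIs, and the TNF+ lung 11085 cells and 155612951 UMIs. The TNF- library held 533 aerocytes with 6287777 UMIs and the TNF+ library 79 with 1615818 UMIs. Aerocytes of the TNF+ lung were the more deeply sequenced, with a median of 17789 UMIs per cell against 8713 in the TNF- lung, although 96 of the 282 endothelial-gate cells of the TNF+ lung had under 1000 UMIs. A fixed minimum of 3 UMIs asks less, as a share of a cell's RNA, of a deep cell than of a shallow one. The median share of mitochondrial UMIs was 3.25% in TNF- and 2.83% in TNF+ aerocytes. Between 5 and 21 cell barcodes were shared by any pair of libraries and none of them was an aerocyte in both. Doublets were kept. The doublet caller Scrublet marked 47 TNF- and 2 TNF+ aerocytes.

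The label was checked on genes that the rule did not use, and the set proved mixed. Of the TNF- cells, 350 (65.7%) held more UMIs of Car4 and Ednrb than of Gpihbp1 and Plvap, and 183 (34.3%) did not. In the TNF+ lung these numbers were 57 (72.2%) and 22 (27.8%). Gpihbp1 and Plvap made this split, so their levels only describe it. Gpihbp1 was at 982 CPM (counts per 1000000, as a share of the summed UMIs) and Plvap at 1161 CPM in the 183 TNF- cells without that excess. The 350 cells with it held them at 179 and 120 CPM. In genes outside the split the 183 cells also stood nearer to general capillary cells. Emp2, a membrane protein abundant in aerocytes, was at 605 CPM in the 183 and 4452 CPM in the 350 cells. Kdr was at 474 and 2239 CPM. Because the rule admits both, results on gene lists are also given for these cells with more Car4 and Ednrb or for cells with at least 1 UMI of both Car4 and Ednrb, 2 sets defined after the data were seen. The set with both genes held 363 TNF- cells (68.1%) and 21 TNF+ cells (26.6%, 95% interval 17.3 to 37.7). It was less depleted of general capillary genes, with Gpihbp1 at 462 CPM and Plvap at 457 CPM in its TNF- cells, and it asks for a gene, Ednrb, whose own level differed between the libraries. The set with more Car4 and Ednrb selects on Gpihbp1 and Plvap, whose levels in aerocytes differed between the libraries too. Car4 without Ednrb was seen in 160 TNF- and 55 TNF+ cells. The 10 TNF- and 3 TNF+ cells with Ednrb alone carried the large-vessel gene Vwf at 1761 and 1310 CPM, the TNF+ UMIs all from 1 cell.

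**Figure D1:**
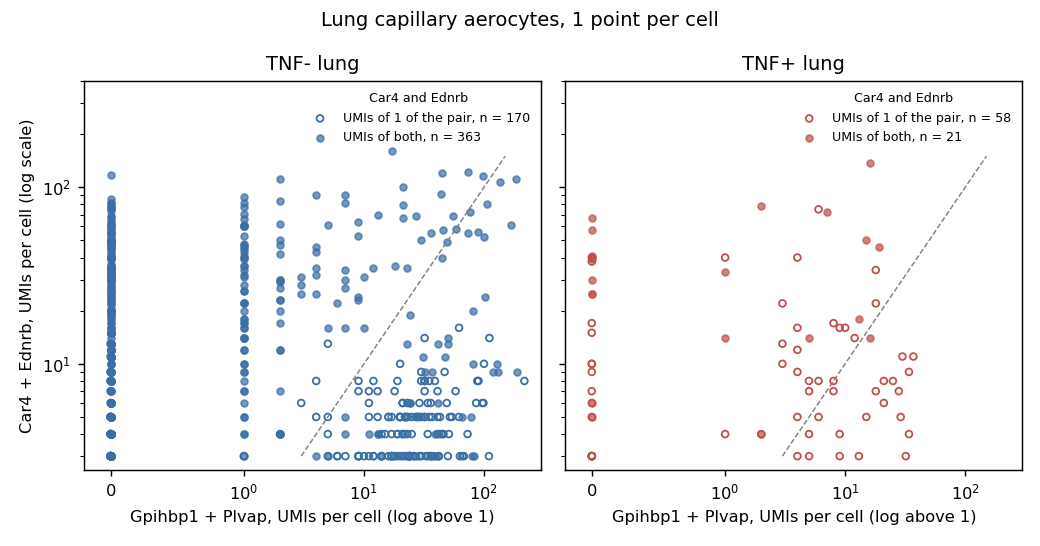
Each point is 1 aerocyte, with its UMIs of Gpihbp1 and Plvap on the x axis (logarithmic above 1) and of Car4 and Ednrb on the y axis (logarithmic), in the TNF- lung (blue) and the TNF+ lung (red). Filled points have UMIs of both Car4 and Ednrb (363 and 21 cells), open points of 1 of them, and the dashed line marks equal sums; the TNF- cells form a dense column near 0 on the x axis and a second cloud below the line, and filled points are scarce in the TNF+ panel.

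Car4 and Ednrb chose the cells, so their sum is a description. It ran from 3 to 160 UMIs per TNF- aerocyte and from 3 to 137 per TNF+ aerocyte, with a median of 10 in both. Just inside the limit, the 81 TNF- cells with a sum of 3 had Emp2 at 416 CPM and Plvap at 1067 CPM. Just outside it, the 189 TNF- cells with a sum of 2 had Emp2 at 383 CPM and Plvap at 1112 CPM, so the limit did not fall at a break in these genes. In the TNF+ lung 11 cells had a sum of 3 and 13 a sum of 2. Across the 533 TNF- aerocytes, Car4 per 10000 UMIs on a log scale had a Pearson correlation of 0.70 with Emp2, 0.62 with Ednrb and -0.63 with Plvap. Across the 79 TNF+ aerocytes it was 0.50 with Emp2, 0.14 with Ednrb and -0.52 with Plvap. These are descriptions over cells of 1 library that share the selection on Car4.

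Aerocytes made up a smaller share of the TNF+ lung library than of the TNF- one, and so did the whole endothelium. They were 6.39% of kept cells in the TNF- lung (533 of 8342, exact binomial 95% interval 5.87 to 6.94) and 0.713% in the TNF+ lung (79 of 11085, 0.565 to 0.887). The log2 ratio of the shares was -3.16 (-3.50 to -2.83). All cells passing the endothelial gate were 28.9% and 2.54% of kept cells. General capillary cells, defined by the same gate with under 3 UMIs of Car4 and Ednrb and at least 3 of Gpihbp1 and Plvap, were 15.8% (1317 cells) and 0.262% (29 cells). Fewer such cells in the tissue and fewer recovered from it cannot be told apart here. All intervals in the text are at 95% and cover counting error only, not the variation between mice or captures.

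**Figure D2:**
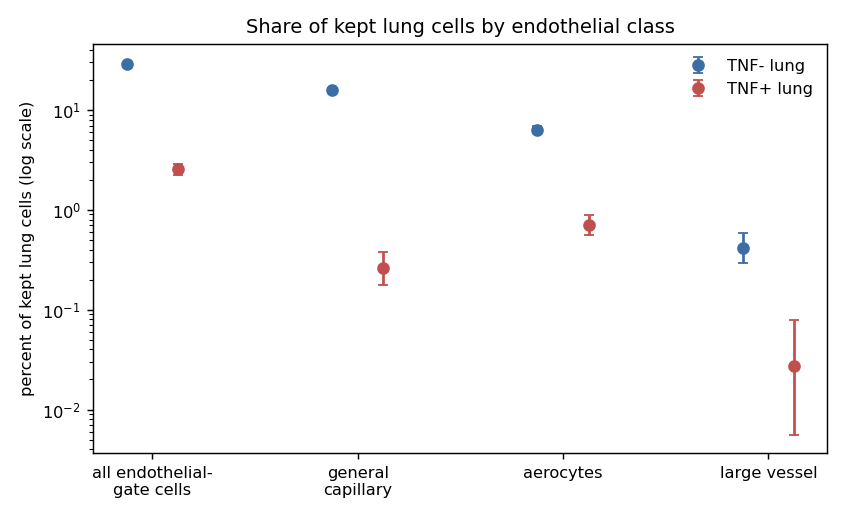
The percent of kept lung cells (y axis, logarithmic) in the endothelial gate and in its 3 classes, in the TNF- lung (blue) and the TNF+ lung (red), with exact binomial 95% intervals. Every class lies lower in the TNF+ lung, and the gap is wider for general capillary cells (15.8% and 0.262%) than for aerocytes (6.39% and 0.713%).

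Within the endothelium the balance of the capillary classes also differed. Aerocytes were 22.1% of endothelial-gate cells in the TNF- lung (20.4 to 23.8) and 28.0% in the TNF+ lung (22.9 to 33.6). Among aerocytes and general capillary cells together, aerocytes were 28.8% of TNF- cells (26.8 to 30.9) and 73.1% of TNF+ cells (63.8 to 81.2). Gate cells in neither class were 564 of 2414 in the TNF- lung (23.4%) and 174 of 282 in the TNF+ lung (61.7%). The general capillary class rests on Gpihbp1 and Plvap, whose levels in aerocytes were also lower in the TNF+ lung, and the part of this in the balance of the classes was not tested. The share of the gate depended on the definition, since cells with UMIs of both Car4 and Ednrb were 15.04% of the TNF- gate and 7.45% of the TNF+ gate. With the rule applied to cells thinned to 500 UMIs, 104 TNF- and 4 TNF+ cells remained, or 4.77% and 1.54% of gate cells. With the study's own limits of 200 to 5000 detected genes the shares of the gate were 20.4% and 17.2%. Aerocytes as a share of aerocytes and general capillary cells stood higher in the TNF+ lung under all 3 of these alternatives, at 42.0% against 21.6%, at 80.0% (4 of 5 cells) against 31.8% and at 72.5% against 26.3%.

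Aerocytes of the TNF- lung differed from its general capillary cells in a limited set of genes. Of 13093 genes compared, 422 were at least 2-fold higher in aerocytes (percent called 3.22) and 596 at least 2-fold lower (percent called 4.55), beside a median log2 ratio of -0.04 over all genes. A list of 14 aerocyte genes that the rule did not use had 13 at least 2-fold higher and a median of 2.78. In the 350 cells with more Car4 and Ednrb than Gpihbp1 and Plvap these were again 13 (percent called 5.33), with a median of 3.63. The exception was Tmem100, a membrane protein induced by BMP signals, at 2120 CPM in aerocytes and 2170 CPM in general capillary cells. Kdr stood at 1282 CPM against 298 CPM. Apln was at 144 CPM against 4.16 CPM. The T-box transcription factor Tbx2 was at 368 CPM against 20.9 CPM, a log2 ratio of 4.14. These 3 genes were thus several-fold higher in the cells with Car4 and Ednrb.

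Among genes with the same sign in the TNF+ lung, the highest ratios in that comparison were led by Slc5a12, a transporter of lactate and other monocarboxylates. It was at 40.4 CPM in aerocytes and 0.189 CPM in general capillary cells, a log2 ratio of 7.74 (interval 5.87 to 10.79). Fibin, a secreted protein, was at 355 CPM against 3.12 CPM. Rgs6, a regulator of G protein signalling, was at 623 CPM against 9.27 CPM, and its log2 ratio was 6.07 in the TNF- lung and 6.14 in the TNF+ lung. The carbohydrate sulfotransferase genes Chst1 (log2 ratio 5.57) and Chst2 (4.22) were also among them. Tmeff2 (6.03), Ccdc184 (6.29), Rprml (5.25), Pde8b (5.05), Frrs1 (4.81), Egflam (4.36) and Kif26b (4.13) completed the list beside Tbx2 and the rule genes Car4 and Ednrb. Apln, at 5.11, was left out because its sign differed in the TNF+ lung. The 15 genes with the lowest ratios, among them Ccl22, Mmp3, Selp, Sele and the club-cell genes Scgb3a2 and Cyp2f2, were at most 3.18 CPM in aerocytes and rested on few UMIs. In the TNF+ lung, Pon1, Scgb3a2, Gria2, Sgcz and Enpp3 had a log2 ratio of -1.63, the value that equal or floored sums give at these UMI totals. Their sign there is thus no agreement between the lungs.

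General capillary genes were lower in aerocytes, but modestly so over the whole set. All 11 on the list had ratios below 0, with a median log2 ratio of -0.65, and only the chemokine Cxcl12 passed 2-fold (-1.06). Gpihbp1 and Plvap are on this list and define the compared class, so they are no finding. In the 350 cells with more Car4 and Ednrb than Gpihbp1 and Plvap, the median was -2.43 and 10 of 11 were at least 2-fold lower (percent called 11.3 among the 11600 genes compared for these cells). The 7 MHC class II pathway genes, which present peptides to CD4 T cells, were all at least 2-fold lower in those 350 cells, with a median of -1.97.

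In the TNF+ lung the median of the aerocyte list was lower, a difference that was not tested. There, 8 of the 13 aerocyte genes compared were at least 2-fold higher in aerocytes than in the 29 general capillary cells (percent called 4.27), none was lower by that margin (percent called 2.47), and the median was 1.51. Igfbp7, a secreted protein of vascular basement membrane, stood at 221 CPM in general capillary cells of the TNF- lung and at 4233 CPM in those of the TNF+ lung. Aerocytes held it at 2085 and 3262 CPM, so its log2 ratio of aerocytes over general capillary cells was 3.24 in the TNF- and -0.38 in the TNF+ lung. Apln was at 4.16 and 65.1 CPM in general capillary cells of the TNF- and TNF+ lung. The 29 TNF+ general capillary cells also carried genes of other cell types. Of 7 alveolar type 1 genes compared, 6 were at least 2-fold lower in TNF+ aerocytes than in them (percent called 2.47), with a median of -5.57. Of 6 fibroblast and mural genes, 4 were lower and 2 higher, with a median of -4.66. The part of that RNA in these levels was not tested.

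Aerocytes of the TNF+ lung were then set against those of the TNF- lung, to ask how their RNA differs under chronic TNF. Of 10325 genes compared, 636 were at least 2-fold higher in TNF+ (percent called 6.16) and 901 at least 2-fold lower (percent called 8.73), with a median log2 ratio of 0.02. For the cells with UMIs of both Car4 and Ednrb, 6622 genes were compared, of which 237 (percent called 3.58) were higher and 499 (percent called 7.54) lower. For those with more Car4 and Ednrb than Gpihbp1 and Plvap, 9354 were compared. Of these, 786 (percent called 8.4) were higher and 742 (percent called 7.93) lower. Counts of list genes below are to be read beside the percent of their set.

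Genes that mark aerocytes were lower in the TNF+ lung. Of the 14 listed, 12 were at least 2-fold lower (percent called 8.73), none was higher by that margin, and the median log2 ratio was -1.53. Emp2 stood at 2367 CPM in TNF- cells and 460.4 CPM in TNF+ aerocytes, with UMIs in 460 of 533 and 32 of 79 cells, a log2 ratio of -2.36 (interval -2.47 to -2.26). Kdr was at 1282 and 458 CPM, a log2 ratio of -1.49 (interval -1.60 to -1.38). Tmem100 was at 2120 and 717 CPM, a log2 ratio of -1.56 (interval -1.65 to -1.48). The 3 genes were detected in most TNF- cells, and Kdr and Tmem100 also in 71 and 72 of the 79 TNF+ cells. Cyp4b1, a cytochrome of the fatty-acid hydroxylase family, was at 1176 and 97.2 CPM. Fibin was at 355 and 32.8 CPM, and Tbx2 at 368 and 132 CPM. Kitl, the ligand of the receptor Kit, lay within 2-fold at 1393 and 1161 CPM, and Igfbp7 was the only one of the 14 above 0, with a log2 ratio of 0.65.

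**Figure D3:**
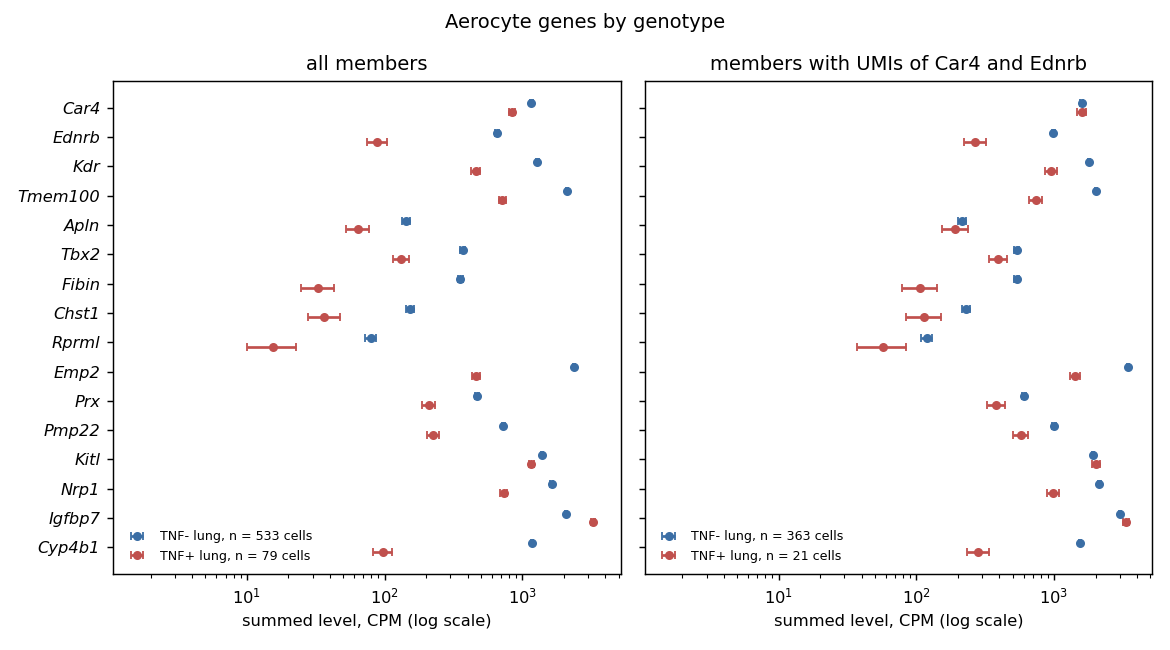
Summed level in CPM (x axis, logarithmic) of Car4, Ednrb and the 14 aerocyte genes in the TNF- lung (blue) and the TNF+ lung (red), with exact Poisson 95% intervals, for all aerocytes (left) and for those with UMIs of both Car4 and Ednrb (right). Most TNF+ points lie to the left of the TNF- points in both panels, with smaller gaps on the right, where Car4, Apln, Kitl and Igfbp7 nearly coincide.

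The size of the difference depended on the set. In cells with more Car4 and Ednrb than Gpihbp1 and Plvap, 12 of the 14 genes were at least 2-fold lower in TNF+, none was above 0, and the median log2 ratio was -1.98. Cells with UMIs of both Car4 and Ednrb keep 68.1% of TNF- but 26.6% of TNF+ aerocytes and so select on a difference between the libraries. In these cells 7 of the 14 genes were at least 2-fold lower in TNF+ (percent called 7.54) and the median log2 ratio was -0.97. Emp2 was at 3463 and 1416 CPM there, Tmem100 at 2019 and 735 CPM, Fibin at 537 and 107 CPM and Cyp4b1 at 1542 and 282 CPM, all 4 still past 2-fold. Apln did not differ by that margin, at 214 and 191 CPM, nor did Tbx2, at 536 and 394 CPM. Among aerocytes of at least 5000 UMIs in both libraries, a set also chosen after the data were seen, the log2 ratio was -2.19 for Emp2, -1.35 for Kdr and -1.57 for Tmem100. In general capillary cells, Tmem100 was at 2170 CPM in TNF- cells and 391 CPM in TNF+ and Cyp4b1 at 467 and 32.6 CPM, while Kdr was at 298 and 353 CPM.

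Ednrb, the receptor that clears and answers endothelins, was used by the rule and is given as a description. It stood at 654 CPM in TNF- cells and 87.9 CPM in TNF+ aerocytes, with UMIs in 373 of 533 and 24 of 79 cells, while Car4 was at 1163 and 844 CPM. In the cells with both, Ednrb was at 990.3 and 269 CPM and Car4 at 1589 and 1587 CPM. In this set the gap between the libraries was wider for Ednrb than for Car4. Both genes chose its cells, so this too is a description. The pan-endothelial junction gene Cldn5, also in the rule, was at 2643 and 1913 CPM.

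To compare detection at equal depth, every cell was thinned to 500 UMIs. The members stayed those chosen on unthinned counts, so the difference in depth remained in their choice. Emp2 was then seen in 60.2% (55.9 to 64.4) of the TNF- aerocytes but in 15.2% (8.10 to 25.03) of the TNF+ ones. Kdr was seen in 48.4% (44.1 to 52.7) and 24.1% (15.1 to 34.98), and Tmem100 in 58.5% (54.2 to 62.8) and 21.5% (13.1 to 32.2). Before thinning these shares were 86.3% and 40.5% for Emp2, 92.7% and 89.9% for Kdr, and 95.7% and 91.1% for Tmem100, so equal depth widened the gap for Kdr and Tmem100. Igfbp7 went the other way, with 57.4% (53.1 to 61.7) and 72.2% (60.9 to 81.7). Of the 14 aerocyte genes, 13 had a lower share in TNF+. With members chosen on thinned counts, which left 4 TNF+ cells, 10 did. T-like cells of the same libraries (median 9459 and 9881 UMIs, against 8713 and 17789 in aerocytes), which should lack these genes, had a UMI of any of these 4 genes in at most 0.813% of cells after the same thinning.

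Target genes of NF-kB were higher in TNF+ aerocytes. The list held 22 genes, of which 15 had enough UMIs to be compared. Of these, 10 were at least 2-fold higher (percent called 6.16) and none was lower by that margin. The median log2 ratio was 1.20, beside 0.02 over all genes. Short sequences before the RefSeq starts of some of these genes and of the 2 genes of the rule are shown because NF-kB binds the kappaB motif. Each is the 250 bases before the annotated start, 5′ to 3′ on the gene's own strand, from RefSeq on build GRCm38.p6, and capitals mark matches, on either strand, to GGG and any 2 bases followed by TTTCC or by TTCCC, where matches may overlap. The windows are chr12:55492648-55492897 (minus strand) for Nfkbia, chr10:19015411-19015660 (minus) for Tnfaip3, chr19:46304487-46304736 (plus) for Nfkb2, chr11:84957504-84957753 (plus) for Car4 and chr14:103843702-103843951 (minus) for Ednrb. Car4 (ENSMUSG00000000805) itself lies at chr11:84957786-84966044 and Ednrb (ENSMUSG00000022122) at chr14:103814625-103844402 in GENCODE vM21 of the same build. The Ednrb and Nfkb2 windows lie inside the GENCODE spans of their genes, and the Tnfaip3 window overlaps its own. For Tnfaip3 and Nfkb2, which have 2 and 3 starts in the table, the first is shown.
Nfkbia: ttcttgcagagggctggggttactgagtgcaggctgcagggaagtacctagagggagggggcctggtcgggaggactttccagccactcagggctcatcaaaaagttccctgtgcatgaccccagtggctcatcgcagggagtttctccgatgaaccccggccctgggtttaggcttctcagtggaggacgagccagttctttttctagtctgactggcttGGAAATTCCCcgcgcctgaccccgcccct
Tnfaip3: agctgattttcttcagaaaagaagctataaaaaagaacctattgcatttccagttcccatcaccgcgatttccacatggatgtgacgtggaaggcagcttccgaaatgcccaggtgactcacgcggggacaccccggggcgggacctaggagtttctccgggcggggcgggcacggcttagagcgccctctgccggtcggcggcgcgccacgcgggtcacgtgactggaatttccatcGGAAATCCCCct
Nfkb2: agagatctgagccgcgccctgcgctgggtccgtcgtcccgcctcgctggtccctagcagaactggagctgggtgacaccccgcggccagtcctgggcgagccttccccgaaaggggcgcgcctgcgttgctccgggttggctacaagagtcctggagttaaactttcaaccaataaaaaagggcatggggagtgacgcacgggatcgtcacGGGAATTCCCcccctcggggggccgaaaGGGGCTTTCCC
Car4: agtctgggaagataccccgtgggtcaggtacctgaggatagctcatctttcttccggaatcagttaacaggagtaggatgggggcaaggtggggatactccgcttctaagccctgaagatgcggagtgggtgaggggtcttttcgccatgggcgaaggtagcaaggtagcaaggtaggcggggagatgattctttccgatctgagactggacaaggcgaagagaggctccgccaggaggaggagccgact
Ednrb: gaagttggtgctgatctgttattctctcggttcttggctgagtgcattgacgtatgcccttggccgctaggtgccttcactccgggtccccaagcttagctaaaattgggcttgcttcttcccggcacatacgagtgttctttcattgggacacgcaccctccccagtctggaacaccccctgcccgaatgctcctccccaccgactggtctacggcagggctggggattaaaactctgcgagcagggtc

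A match to either motif was found for 8 of the 18 NF-kB list genes that had a promoter entry (44.4%), namely Csf1, Cxcl1, Cxcl10, Cxcl9, Nfkb2, Nfkbia, Tnfaip3 and Tnip1. Among all 27025 genes with an entry, 734 (2.72%) had one. Of Car4, Ednrb and the listed aerocyte genes, 14 had an entry and 0 of these had a match. With so low a share over all genes, 0 of 14 is no contrast to it. A match describes the letters of these windows and not a bound site.

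The inhibitors and feedback genes of the pathway came first. Tnfaip3, the deubiquitinase A20 that shuts the pathway off, was at 9.86 CPM in TNF- cells and 106 CPM in TNF+ aerocytes, with UMIs in 48 of 533 and 56 of 79 cells, a log2 ratio of 3.42 (interval 3.00 to 3.87). Nfkbia, the inhibitor that holds NF-kB in the cytoplasm, was at 340.0 and 721 CPM, a log2 ratio of 1.08 (interval 0.98 to 1.19). Tnip1, a partner of A20, was at 30.5 and 119 CPM, and Birc3, an E3 ligase of the TNF receptor complex, at 32.9 and 118 CPM. These 4 genes were all past 2-fold, and each had UMIs in at least 56 of the 79 TNF+ cells. The subunits of the non-canonical pathway were past 2-fold too, with Relb at 33.2 and 121 CPM and Nfkb2 at 18.9 and 66.2 CPM, while Nfkb1 of the canonical pathway was at 185 and 228 CPM.

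Of the effector genes, the adhesion molecule Vcam1 was at 22.6 CPM in TNF- cells and 197 CPM in TNF+ aerocytes, with UMIs in 21 and 43 cells, a log2 ratio of 3.12 (interval 2.83 to 3.42). Icam1, another adhesion molecule, lay within 2-fold at 253 and 295 CPM. Csf1, a growth factor of macrophages, was at 53.0 and 114 CPM. The log2 ratio of Lrg1 was 1.62, but 86.3% of its TNF+ UMIs came from 1 cell, and it was -0.77 in cells with more Car4 and Ednrb than Gpihbp1 and Plvap. The chemokine gene Cx3cl1 and the superoxide dismutase Sod2 stayed within 2-fold, with log2 ratios of -0.24 and 0.18. Ccl2, Cxcl1, Cxcl9, Cxcl10 and Sele had too few UMIs for comparison.

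**Figure D4:**
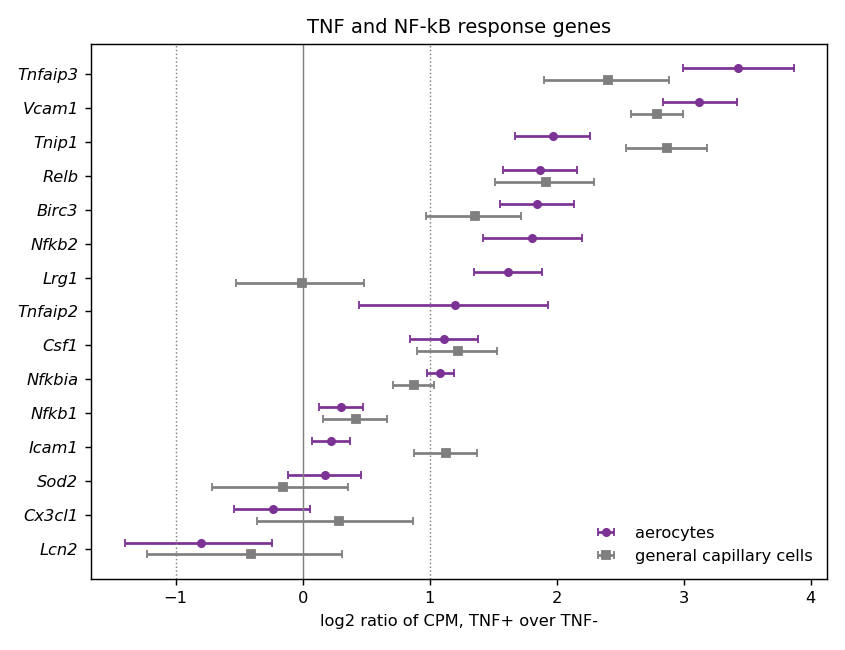
Log2 ratio of CPM, TNF+ over TNF- (x axis), for the 15 NF-kB list genes compared in aerocytes (circles) and, where enough UMIs were present, in general capillary cells (squares), with conditional binomial 95% intervals; dotted lines mark 2-fold. Tnfaip3 and Vcam1 lie farthest to the right in aerocytes at 3.42 and 3.12, and both cell classes lie to the right of 0 for most genes.

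For cells with more Car4 and Ednrb than Gpihbp1 and Plvap, 8 of 14 NF-kB genes compared were at least 2-fold higher (percent called 8.4). There 1 was lower, and the median was 1.35. With UMIs of both Car4 and Ednrb, 6 of 13 genes compared were at least 2-fold higher, 1 was lower, and the median was 0.38, while Nfkbia (1.23), Relb (1.90) and Birc3 (2.02) kept log2 ratios above 1. Tnfaip3 had too few UMIs to be compared in these cells. General capillary cells had 7 of 13 genes at least 2-fold higher (percent called 4.78) and a median of 1.13. Leukocytes carry several of these RNAs, and T-like cells had Tnfaip3 at 192 and 228 CPM and Nfkbia at 332 and 499 CPM in the TNF- and TNF+ lung. The lymphocyte list summed to 94.2 CPM in TNF- cells and 503.8 CPM in TNF+ aerocytes, most of it the antibody gene Igkc, and its part in these values was not tested. Of the TNF receptors and adaptors, 0 of 5 genes compared passed 2-fold, with Tnfrsf1a at 196 and 115 CPM.

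Genes of the VEGF and angiopoietin pathway moved in both directions. Of 12 compared, 5 were at least 2-fold lower in TNF+ aerocytes (percent called 8.73) and 1 higher (percent called 6.16), with a median log2 ratio of -0.45. Beside Kdr and Apln, the decoy receptor Flt1 was at 1034 and 353 CPM, the co-receptor Nrp1 at 1628 and 730.3 CPM, and the angiopoietin receptor Tek at 684 and 279 CPM. Nrp2, the co-receptor more usual in veins and lymphatics, was the one higher gene, at 15.1 and 114 CPM with UMIs in 33 of 533 and 51 of 79 cells. In cells with more Car4 and Ednrb than Gpihbp1 and Plvap, 4 of 11 were lower (percent called 7.93) and 2 higher (percent called 8.4). The median was 0.16, and the log2 ratio of Tek was 0.18. In cells with UMIs of both Car4 and Ednrb, 3 of 9 were lower and none higher.

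Of 9 vasoactive genes compared, 5 were at least 2-fold lower in TNF+ aerocytes (percent called 8.73) and none higher, with a median of -1.02. Ace, which makes angiotensin II, was at 849 CPM in TNF- cells and 379 CPM in TNF+ aerocytes. The adrenomedullin receptor pair Calcrl and Ramp2 were at 4019 and 1980 CPM and at 2315 and 902 CPM. Npr3, the natriuretic peptide clearance receptor, was at 181 and 10.5 CPM. The fifth gene was Ednrb, which the rule used, so its place in this count and in those of the stricter sets is only a description. Nos3, the endothelial nitric oxide synthase, lay within 2-fold at 27.7 and 41.5 CPM. In cells with more Car4 and Ednrb than Gpihbp1 and Plvap, 5 of 9 were lower and 3 higher, the latter being Nos3 (2.12), the prostacyclin synthase Ptgis (1.30) and the endothelin gene Edn1 (1.16). In cells with UMIs of both Car4 and Ednrb, 5 of 8 were lower and Ptgis was higher. Of 6 caveola and water-channel genes, Cav1 (-1.29), Cav2 (-1.36) and Cavin2 (-1.59) passed 2-fold and Aqp1 (-0.94) did not. All 6 had log2 ratios below 0, with a median of -1.12.

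The BMP receptor pathway is of interest because the transgenic mice are used as a model of pulmonary vascular disease, and loss of BMPR2 underlies heritable pulmonary hypertension. Of 12 genes compared, 4 were at least 2-fold lower (percent called 8.73) and none higher, with a median of -0.56. Bmpr2 stood at 1994 CPM in TNF- cells and 986 CPM in TNF+ aerocytes, a log2 ratio of -1.02 (interval -1.09 to -0.94). Its partner receptor Acvrl1 was at 1275 and 492 CPM, the inhibitory Smad6 at 673 and 237 CPM, and the fourth gene was Tmem100. The target genes Id1 and Id3 lay within 2-fold, at 463 and 343 CPM and at 794 and 1016 CPM. All 4 were past 2-fold in cells with UMIs of both Car4 and Ednrb too, where the log2 ratio was -1.03 for Bmpr2 and -1.10 for Acvrl1, while in cells with more Car4 and Ednrb than Gpihbp1 and Plvap that of Bmpr2 was -0.92. In general capillary cells 7 of the 12 were at least 2-fold lower (percent called 9.76) and Bmpr2 was at 2034 and 621 CPM.

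Few junction and Notch genes passed 2-fold. Of 8 junction genes compared, only Ptprb, the phosphatase that restrains Tek and VE-cadherin signalling, passed 2-fold, at 1585 and 478 CPM, and it is part of the rule. Pecam1 was at 1556 and 1531 CPM. Of 8 Notch genes, only Jag1 passed 2-fold, at 31.0 and 15.5 CPM, with the list median at -0.48. Among cells with UMIs of both Car4 and Ednrb, 2 of 8 junction genes and 1 of 8 Notch genes were lower. Of 5 flow-response genes, 1 was at least 2-fold higher and 1 lower, with a median of -0.63. The nuclear receptor Nr4a1 was at 11.3 and 44.6 CPM, the anticoagulant receptor Thbd was at 1037 and 332 CPM, past 2-fold, while the transcription factors Klf2 and Klf4 lay within it at log2 ratios of -0.63 and -0.86.

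Among 14 endothelial transcription factors compared, 2 were at least 2-fold higher and 3 lower, with a median of -0.22. Sox17, an arterial factor, was at 152 CPM in TNF- cells and 350.3 CPM in TNF+ aerocytes, and Meox1 at 69.7 and 227 CPM with UMIs in 194 of 533 and 65 of 79 cells. Epas1, the hypoxia-responsive factor HIF-2 alpha, was at 2876 and 1231 CPM, and Gata2 at 289 and 119 CPM. The third lower gene was Tbx2. Among cells with UMIs of both Car4 and Ednrb, 2 of 14 were higher and 2 lower. Erg and Fli1, which keep endothelial identity, lay within 2-fold at log2 ratios of -0.19 and 0.29.

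Antigen presentation depended on which cells were counted. Over all aerocytes, only Cd74, the invariant chain, of the 7 MHC class II pathway genes passed 2-fold, at 774 CPM in TNF- cells and 1932 CPM in TNF+, and the list median was 0.48. In cells with more Car4 and Ednrb than Gpihbp1 and Plvap all 7 passed (percent called 8.4 among 9354 genes), with a median of 1.70. This set selects on Gpihbp1 and Plvap, both lower in TNF+ aerocytes. In its TNF- cells all 7 genes were at least 2-fold lower than in general capillary cells. The part of that selection in the higher levels was not tested. In cells with UMIs of both Car4 and Ednrb none was at least 2-fold higher, 1 was lower, and the median was 0.12. MHC class I genes did not pass 2-fold in any of these sets (0 of 12). Of 21 interferon-stimulated genes, only Ifi27l2a did over all aerocytes, at 12.2 and 105 CPM, and the median was -0.04.

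General capillary genes behaved in the same divided way. Over all aerocytes 6 of 11 were at least 2-fold lower in TNF+ and 1 higher, with a median of -1.29. Plvap was at 684 and 142 CPM and Gpihbp1 at 614 and 240.1 CPM, and the higher gene was Cxcl12, at 250.3 and 919 CPM with UMIs in 174 and 56 cells. In cells with more Car4 and Ednrb than Gpihbp1 and Plvap, 5 were at least 2-fold higher and 3 lower (percent called 7.93). The 5 were Cxcl12 (3.19), Cd93 (2.06), Kit (1.88), Aplnr (1.36) and Sema3c (1.10). The part of the selection on Gpihbp1 and Plvap in these values was not tested. In cells with UMIs of both Car4 and Ednrb none was higher and 6 were lower. Kit was at 82.6 CPM in TNF- cells and 305 CPM in TNF+ in the former set and at 191 and 193 CPM in the latter.

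**Figure D5:**
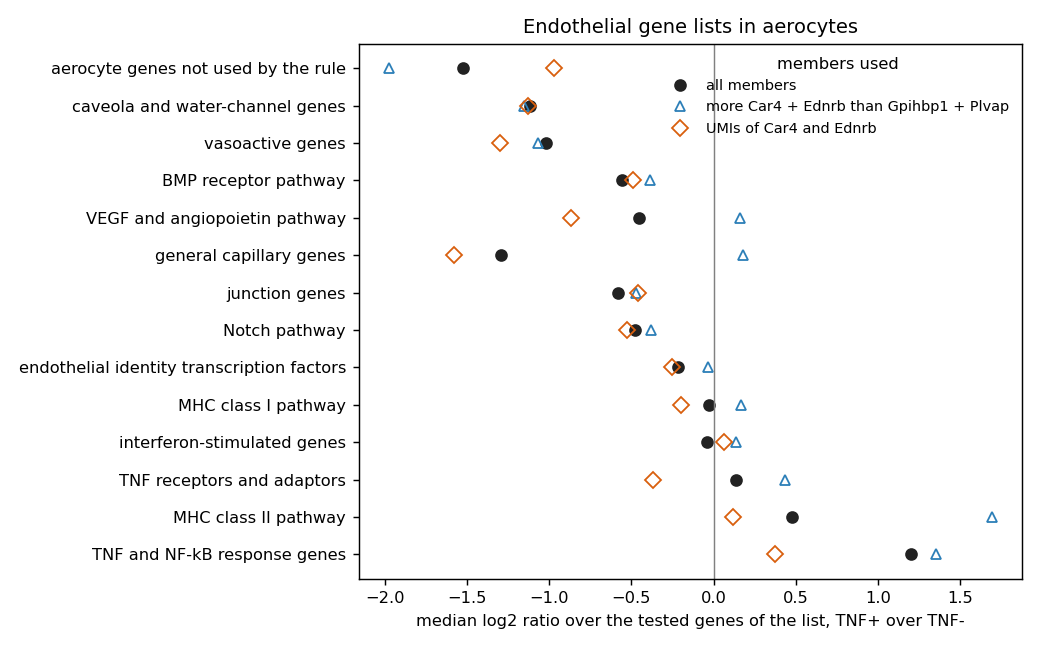
Median log2 ratio, TNF+ over TNF- (x axis), over the compared genes of 14 lists, for all aerocytes (circles), those with more Car4 and Ednrb than Gpihbp1 and Plvap (triangles) and those with UMIs of both Car4 and Ednrb (diamonds). Aerocyte, caveola and vasoactive lists, the last including the rule gene Ednrb, lie left of 0 in all 3 sets. The NF-kB list lies right of it (1.20, 1.35 and 0.38), while the triangles stand apart for general capillary and MHC class II genes.

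Complement genes, the subject of the study, were mostly near the detection limit in aerocytes. Of 14 listed, 9 could be compared, 4 were at least 2-fold higher in TNF+ (percent called 6.16) and 1 lower (percent called 8.73), with a median of -0.03. Cd55, which protects cells from complement, was at 18.8 CPM in TNF- cells and 96.5 CPM in TNF+ aerocytes, with UMIs in 18 of 533 and 40 of 79 cells; 76.3% of the TNF- UMIs came from 1 cell. C3, the central component, was at 14.8 and 31.6 CPM, and factor B (Cfb) at 2.23 and 22.9 CPM with UMIs in 12 and 9 cells. Only 2 complement genes could be compared in cells with UMIs of both Car4 and Ednrb, of which none was higher and 1 lower. In general capillary cells C3 was at 13.2 and 462 CPM. The C1 inhibitor Serping1 was at 31.5 and 224 CPM there, against 45.8 and 22.3 CPM in aerocytes. The TNF+ values of general capillary cells rest on 29 cells, which also carried alveolar type 1 and fibroblast genes. The part of that RNA in these levels was not tested.

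Genes of the cell cycle were higher in TNF+ aerocytes but came from few cells. Of 6 genes compared, 5 were at least 2-fold higher (percent called 6.16), with a median of 2.61. Mki67, present in dividing cells, was at 2.54 CPM in TNF- cells and 49.5 CPM in TNF+ aerocytes with UMIs in 2 and 7 cells, and Top2a, a topoisomerase of dividing cells, at 4.77 and 55.7 CPM. Cells with at least 3 UMIs of both genes together numbered 1 of 533 in TNF- (0.188%, interval 0.00475 to 1.04) and 5 of 79 in TNF+ (6.33%, 2.09 to 14.2). After thinning to 5000 UMIs they numbered 1 of 366 and 3 of 72 (4.17%, 0.868 to 11.7), and the intervals overlapped. None of the 21 TNF+ cells with UMIs of both Car4 and Ednrb was among them.

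Other lists had few members past 2-fold. Of 14 immediate-early and stress genes compared, 3 were at least 2-fold higher and 1 lower, with a median of 0.13, and Junb was at 154 CPM in TNF- cells and 408 CPM in TNF+ aerocytes. Of 9 hypoxia and glycolysis genes, 1 was higher and 1 lower, with a median of 0.64. Of 4 carbonic anhydrase genes, 1 was lower, with a median of -0.71. Car4, used by the rule, is among the 4 and lay within 2-fold, so that median includes it. None of 3 nuclear long non-coding RNAs passed 2-fold, with a median of -0.35. Of 14 large-vessel genes, 2 were higher and 5 lower, with a median of -0.45, and of 6 lymphatic genes 3 were higher and 1 lower, with a median of 0.52.

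The 10 genes with the highest ratios of TNF+ over TNF-, among those that kept their direction and 2-fold size under 2 other treatments of the data, were led by Ubd, a ubiquitin-like protein induced by TNF, at 0.159 and 74.9 CPM, a log2 ratio of 8.88 (interval 6.37 to 14.19), with 60.3% of its TNF+ UMIs in 1 of 23 cells. Prnd, a prion-like protein, was at 0.477 CPM in TNF- cells and 207 CPM in TNF+ aerocytes (log2 ratio 8.76, interval 7.20 to 11.04), and Far2, a fatty acyl-CoA reductase, at 1.11 and 169.6 CPM, with UMIs in 39 and 60 of the 79 TNF+ cells. Sh3gl3 (log2 ratio 5.78, 40 cells), Ryr2 (5.50, 34 cells) and Rgs16 (6.17, 22 cells) were likewise spread over many TNF+ cells. The chemokine Cxcl13 had no UMI in TNF- aerocytes and UMIs in 33 TNF+ cells, a log2 ratio of at least 6.05 against a floor of 3 UMIs, which became 1.85 after subtraction of RNA levels seen in leukocytes. Ackr1 and Selp each came from 1 TNF+ cell, and Hist1h1b had 85.7% of its UMIs in 1 cell. A gene with no UMI in either set gets a ratio above 2-fold from the floor alone where the TNF+ set has far fewer UMIs. Of the 2 treatments, the rule on thinned counts left 4 TNF+ cells. Passing it is thus no check on genes held by few TNF+ cells. The 10 lowest were Tnxb (-4.63), Tmeff2 (-4.27), Cyp4b1 (-3.60), Fndc1 (-3.52), Fibin (-3.44), Dpysl5 (-3.43), Pde8b (-3.42), Enho (-3.18), Ednrb (-2.89) and Itgb5 (-2.77). Tmeff2, Fibin and Pde8b were also among the 15 genes listed as highest in aerocytes over general capillary cells of the TNF- lung, as was Ednrb, whose place there the rule fixes.

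Other cell types' genes moved between the 2 aerocyte sets. Alveolar type 2 genes summed to 4835 CPM in TNF- cells and 365 CPM in TNF+ aerocytes, with 8 of 8 at least 2-fold lower in TNF+, and alveolar type 1 genes to 1488 and 558 CPM, with 5 of 7 lower. Red cell and platelet genes summed to 2651 and 45.2 CPM, and 1 TNF- cell held 90.2% of the Hbb-bs UMIs. Fibroblast and mural genes summed to 809 and 1142 CPM, with 6 of 10 lower. Myeloid genes summed to 579 and 697 CPM, with 5 of 8 higher. The list genes Akap5 and Igfbp2 (type 1), Mfap4 (fibroblast) and Itga2b (platelet) had no UMI in TNF+ aerocytes. They are single members, and the sums show that other genes of these lists kept UMIs there. The part of RNA from other cell types in the values above was not tested. Large-vessel and lymphatic genes rested on few TNF+ cells: Vwf, Selp and Ackr1 on 1 cell, and Ccl21a and Mmrn1 on 2. Without cells of 3 or more UMIs of Vwf, Ccl21a, Mmrn1 and Prox1, which left 461 and 76 cells, the aerocyte list again had 12 of 14 genes at least 2-fold lower (percent called 8.39), with a median of -1.79, and the NF-kB list 9 of 15 higher (percent called 6.99) and 2 lower with a median of 1.48.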

How the data were processed

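Single-cell 3' RNA libraries of lung (10x Genomics) were aligned by the authors with Cell Ranger 7.0.1 to mm10 (GRCm38), and the deposited values are raw UMI counts per gene and cell, 32285 genes, with no normalization. The deposit held 8555 TNF- and 11243 TNF+ lung barcodes, a difference from the kept cells set by the mitochondrial limit. No cell-type annotation was used. UMIs were summed over the cells of a set and scaled to counts per 1000000 (CPM). Genes were compared where the smaller sum would hold at least 10 UMIs at equal levels, and called at 2-fold (log2 ratio of 1). Cells were thinned to 500 UMIs in 1 seeded draw. Intervals are exact Poisson (levels), exact Clopper-Pearson (shares) and conditional binomial (ratios), at 95%. A level of 0 was set to a floor of 3 UMIs over the set for a ratio. With 1 library of pooled mice per group no test was possible. T-like cells, chosen on Cd3 genes, served as background. The fold-change script was tested on simulated counts with Poisson error only, which hold no variation between cells or mice. Python 3.11.15, numpy 2.4.6, scipy 1.17.1, pandas 2.3.3 and scanpy 1.11.5 were used.

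Members, 29 gene lists (303 genes) and rules were chosen with earlier results of these data known. Named genes were the markers, up to 6 list members with the most UMIs (all of a list of 12 or fewer), the 10 highest and 10 lowest ratios of TNF+ over TNF- that kept sign and 2-fold size after subtraction of leukocyte RNA and with members chosen on thinned counts, and the 15 highest and lowest of aerocytes over general capillary cells with the same sign in both lungs. Other list members named were chosen after their values were seen. A result for 1 list member is not reported here.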

Additional observations from a re-analysis of the deposited data

Results flagged for a closer look

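Cells meeting the same rule were also present in the synovium libraries, which the comparisons did not use. They were 3.09% of kept cells in the TNF+ synovium (108 of 3498) and 1.79% in the TNF- synovium (119 of 6638). Their aerocyte genes lay far below the lung's, with Emp2 at 41.5 CPM in TNF- synovium and 33.1 CPM in TNF+ synovium and Tmem100 at 15.3 and 11.3 CPM. Apln had no UMI in the TNF- synovium set and stood at 26.0 CPM in the TNF+ one. These synovial cells are thus not called aerocytes here.

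For 7 list genes with enough UMIs in both lungs, the ratio of aerocytes over general capillary cells was past 2-fold in both lungs with opposite signs, and the difference was not tested. In the TNF+ lung the log2 ratio was 1.29 for Vwf, whose aerocyte UMIs came from 1 cell, against -1.79 in the TNF- lung. It was at least 3.29 for Mmrn1 and at least 6.40 for Ccl21a, both from 2 cells and with no UMI in TNF+ general capillary cells, against -1.82 and -3.82. For Hopx, a gene of alveolar type 1 cells, it was -2.30 against 1.41, and for Igfbp2 it was -5.93, a bound, against 2.86. Mki67 had 1.88 against -2.03 and Top2a 2.86 against -1.23, over 7 TNF+ aerocytes with a UMI of each.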

How the results depend on the processing

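The share of lung cells stayed lower in TNF+ under every alternative, with log2 ratios of -5.11 with the rule on thinned counts, -3.98 with 200 to 5000 genes per cell and -4.52 for cells with UMIs of both Car4 and Ednrb. The share of the endothelial gate reversed under these 3, to -1.63, -0.25 and -1.01, and was 0.84 for cells of at least 1000 UMIs. Genes higher and lower in TNF+ numbered 39 and 94 with the rule on thinned counts, which left 4 TNF+ cells, 252 and 519 with 200 to 5000 genes, 40 and 130 with members thinned to 500 UMIs, and 0 and 2 among members of 500 to 2000 UMIs, where few genes could be compared. They numbered 1144 and 1404 with at least 3 UMIs expected, 2181 and 1506 for any gene with a UMI in both, and 237 and 499 for cells with both Car4 and Ednrb. Subtraction of leukocyte RNA gave 1649 higher genes. Genes higher in aerocytes than in general capillary cells numbered 736 with Car4 and Ednrb of at least 2 and 722 with at least 3 UMIs expected. Genes lower numbered 900 with the rule on thinned counts, 184 in the TNF+ lung, 1218 with at least 3 UMIs expected and 1315 for cells with more Car4 and Ednrb than Gpihbp1 and Plvap. Single genes reversed in TNF+ over TNF- for Enho (1.48, members of 500 to 2000 UMIs) and, with the rule on thinned counts, for Tbx2 (0.43) and Nfkbia (-0.30). Over general capillary cells they did for Ccl22 (0.0167, Scrublet doublets removed), Mmp3 (0.37 with 200 to 5000 genes and 1.05 with Gpihbp1 and Plvap of at least 5), Cyp2f2 (1.958 with the rule on thinned counts), and, with Car4 and Ednrb of at least 2, Pon1 (3.25), Scgb3a2 (4.54) and Cyp2f2 (4.30). Beyond the cell and gene numbers given, the cause of each was not tested. Of the other single-gene values, 728 stayed within the interval of the reported value and 303 did not. No paired analysis was possible because each group has 1 library.

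The 79 TNF+ aerocytes came from 1 pooled library, so variation between mice was not measured. Genes below about 10 expected UMIs could not be compared, and genes with most UMIs in 1 cell describe that cell.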

Other observations

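General capillary cells of the TNF+ lung, 29 cells in all, carried several genes that separated the classes in the TNF- lung. Meox1, a homeobox transcription factor, was at 13.4 CPM in TNF- cells and 195 CPM in TNF+ cells of this class, against 69.7 and 227 CPM in aerocytes, so that its log2 ratio of aerocytes over general capillary cells was 2.37 in the TNF- and 0.22 in the TNF+ lung. That ratio was 2.11 and 0.38 for Kdr and 5.11 and -0.03 for Apln. Tbx2 and Rgs6 kept ratios above 2-fold in both lungs, at 4.14 and 5.11 for Tbx2 and at 6.07 and 6.14 for Rgs6. The difference between the lungs was not tested for any of these genes. Nor was the part of RNA from other cell types in those 29 cells.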
